A study of Mus musculus with 4 samples.

Results

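A set of 10 of the genes counted in these libraries makes up the angiogenic ligand and endothelial receptor set described here. They were taken by symbol and are the vascular endothelial growth factor (VEGF) receptor genes Kdr and Flt1, the Tie receptor genes Tek and Tie1, the TGF-beta co-receptor gene Eng, the endothelial genes Pecam1 and Egfl7, and the ligand genes Vegfa, Vegfb and Angpt1. All 10 had an identifier among the 27179 in the files, and all 10 were among the 16918 genes tested after the filter on low counts. RNA came from the lumbar spinal cord (L4 to L6) of male C57BL/6J mice at day 28 after surgery, and each library is one poly(A) RNA-seq sample. The sciatic nerve cuff group, in which a cuff around the nerve serves as a model of neuropathic pain, has 2 libraries (cuff replicates 1 and 2), and the sham-operated group has 2 (sham replicates 1 and 2). No age, genotype change or drug is given for either group, and no label says whether a library was 1 animal or a pool, so p-values speak for these samples only, whose spread may be technical. Groups follow the sample titles, but the name of each library's file carries the other group's name. Cuff and sham libraries are named here by title. Were the file names the correct ones, each difference below would have the opposite sign.

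VEGF-A binds the receptor tyrosine kinases encoded by Kdr, which carries most of the growth signal in endothelial cells, and Flt1, which binds VEGF-A tightly and also binds VEGF-B. Angiopoietin-1, the product of Angpt1, activates the Tie2 receptor (Tek) and helps to keep vessels quiescent, and Tie1 is a partner of Tie2. Endoglin (Eng) presents BMP9 to the kinase ALK1 (Acvrl1), PECAM-1 joins neighbouring endothelial cells, and EGFL7 is a secreted protein of the endothelial matrix. In the central nervous system the receptors are found mainly on endothelial cells, whereas VEGF-A is made largely by astrocytes and neurons.

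Promoter windows from RefSeq (build GRCm38.p6, 250 bases before to 50 after a start) are shown for 4 of the receptor genes that were higher in the cuff libraries, to set their letters side by side. Each is written 5′ to 3′ on the gene's own strand. Capitals mark the ETS cores AGGAAG and CGGAAG and the GC box GGGCGG on either strand.
Kdr promoter, chr5:75978406-75978705, minus strand: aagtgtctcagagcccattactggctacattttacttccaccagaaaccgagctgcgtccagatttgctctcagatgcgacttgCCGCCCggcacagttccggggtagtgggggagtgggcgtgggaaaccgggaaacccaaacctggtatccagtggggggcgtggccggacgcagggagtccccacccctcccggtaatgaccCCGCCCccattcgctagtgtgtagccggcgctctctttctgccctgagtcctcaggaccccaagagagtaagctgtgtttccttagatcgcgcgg
Flt1 promoter, chr5:147725962-147726261, minus strand: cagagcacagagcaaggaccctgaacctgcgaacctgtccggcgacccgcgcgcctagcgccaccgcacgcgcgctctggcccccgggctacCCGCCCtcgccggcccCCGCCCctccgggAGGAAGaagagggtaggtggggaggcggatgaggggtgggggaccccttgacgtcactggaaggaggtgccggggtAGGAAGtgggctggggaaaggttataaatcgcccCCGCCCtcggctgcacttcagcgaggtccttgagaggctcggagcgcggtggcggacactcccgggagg
Tie1 promoter, chr4:118489800-118490099, minus strand: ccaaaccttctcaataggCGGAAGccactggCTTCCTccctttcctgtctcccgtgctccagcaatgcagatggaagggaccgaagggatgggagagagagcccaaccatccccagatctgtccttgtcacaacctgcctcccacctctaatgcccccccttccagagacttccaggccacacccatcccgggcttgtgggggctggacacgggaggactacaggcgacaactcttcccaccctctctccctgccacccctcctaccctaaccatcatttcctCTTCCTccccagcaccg
Eng promoter, chr2:32646345-32646644, plus strand: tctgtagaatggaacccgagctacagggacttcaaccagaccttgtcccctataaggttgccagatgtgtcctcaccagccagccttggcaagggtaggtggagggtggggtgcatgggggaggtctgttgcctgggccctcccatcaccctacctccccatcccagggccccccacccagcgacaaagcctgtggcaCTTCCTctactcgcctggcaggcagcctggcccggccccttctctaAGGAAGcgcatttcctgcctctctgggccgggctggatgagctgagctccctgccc
Flt1 held 2 AGGAAG cores and 3 GC boxes, Tie1 held 2 AGGAAG cores and 1 CGGAAG core, Eng held 2 AGGAAG cores, and Kdr held 2 GC boxes and neither ETS core. The 8 members with an entry had 11 windows. AGGAAG was in 5 of the 11 (45.5%), against 35.4% of 32851 mouse windows of that length, and GGGCGG was in 6 (54.5%), against 35.7%. CGGAAG was in 1 of the 11 (9.09%), against 16.9% of all windows. The TATA box TATAAA was in 1 (Flt1), against 13.6% of all windows, the hypoxia response core ACGTG in 1 (Vegfa), against 19.6%, and the forkhead core TGTTTA in 1 (Vegfb), against 13.4%. The window of Tek held none of the 6 motifs. These matches are letters in a window and were not measured as binding. Egfl7 also carries a microRNA known from endothelial cells. In RefSeq, miR-126a-3p lies at chr2:26591402-26591423 on the plus strand, and its hairpin overlapped no exon in any of the 7 protein-coding Egfl7 transcripts of GENCODE M21. Capitals mark its seed, bases 2 to 8.
mmu-miR-126a-3p: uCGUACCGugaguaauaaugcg
Its hairpin gene had 1 and 4 counts in the cuff libraries and 2 and 1 in the sham libraries, so these libraries give no level for it.

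Counts per library summed to between 32936609 and 39461573. The cuff libraries did not share their content of other tissue equally: markers of muscle, blood cells, meninges and peripheral nerve were highest in cuff replicate 2, as given with the marker lists further on. Of all tested genes, 4.11% were called at an adjusted p of 0.05, 1.15% higher and 2.96% lower in the cuff libraries (edgeR's quasi-likelihood test, Benjamini-Hochberg). DESeq2 called 7.26% and limma-voom 0.869% of the genes they tested. At an unadjusted p under 0.05, 21.5% of all tested genes passed in edgeR, 9.74% higher and 11.7% lower, which is the background for the counts at that threshold given further on.

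The VEGF receptor genes were higher in the cuff libraries, Kdr about 2.16-fold and Flt1 about 1.51-fold. Kdr (Entrez Gene 16542, chromosome 5, 75932827 to 75979072, mm10) was at 8.21 and 8.61 CPM, the count scaled to its library's total, in the cuff libraries, against 3.48 and 4.30 CPM in the sham libraries. The groups were far apart relative to the difference within each, and this was the largest fold of the 10 (log2 fold change 1.11 ± 0.24 SE, adjusted p = 0.0173, n = 2 each, edgeR). Flt1 (Entrez Gene 14254, chromosome 5, 147561604 to 147726438) was at 22.6 and 22.3 CPM in the cuff libraries, against 13.1 and 16.6 CPM in the sham libraries. The cuff libraries nearly coincided and the sham libraries were spread, with no overlap between groups (0.59 ± 0.16, adjusted p = 0.0477, edgeR). In bulk tissue, more cells of a type and more RNA per cell cannot be told apart.

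Both Tie receptor genes rose. Tek (Entrez Gene 21687, chromosome 4, 94739086 to 94874976) was at 13.1 and 14.2 CPM in the cuff libraries, against 7.48 and 8.50 CPM in the sham libraries, with no overlap between groups (0.77 ± 0.18, adjusted p = 0.0295, edgeR). Tie1 (Entrez Gene 21846, chromosome 4, 118471191 to 118489849) was at 9.01 and 9.99 CPM in the cuff libraries, against 3.77 and 6.22 CPM in the sham libraries (0.93 ± 0.25, adjusted p = 0.0428, edgeR). Both cuff libraries lay above both sham libraries for each gene. The sham libraries differed more for Tie1 than for Tek, and without sham replicate 1 the Tie1 value was 0.59, against 1.33 without sham replicate 2.

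Eng, Pecam1 and Egfl7 rose as well. Eng (Entrez Gene 13805, chromosome 2, 32646595 to 32682669) had the smallest adjusted p of the 10. It was at 14.3 and 16.5 CPM in the cuff libraries, against 6.62 and 8.68 CPM in the sham libraries (1.01 ± 0.19, adjusted p = 0.0120, edgeR). Its annotated span shares 61 bases with the neighbouring gene Fpgs, which encodes a folate enzyme and was also higher (0.76, adjusted p = 0.0409, edgeR). The library kit kept strand, but whether the counting used it is not stated, so reads in the shared bases are uncertain. Pecam1 (Entrez Gene 18613, chromosome 11, 106654213 to 106715281) was at 16.1 and 17.1 CPM in the cuff libraries, against 10.5 and 11.2 CPM in the sham libraries (0.62 ± 0.17, adjusted p = 0.0476, edgeR). The replicates of Pecam1 lay within about 1 CPM of each other in both groups. Egfl7 (Entrez Gene 353156, chromosome 2, 26581083 to 26592682) was at 21.4 and 24.0 CPM in the cuff libraries, against 13.0 and 15.2 CPM in the sham libraries (0.69 ± 0.16, adjusted p = 0.0258, edgeR). In all 3 genes replicate 2 was the higher library of each group, and the groups did not overlap. The annotated spans of Kdr, Flt1 and Angpt1 overlap long non-coding RNA genes (Gm32727, Gm35383 and Gm41313) that have no value here.

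None of the 3 ligand genes passed the test. Vegfa (Entrez Gene 22339, chromosome 17, 46016993 to 46032377) was at 99.4 and 85.4 CPM in the cuff libraries, against 115 and 102 CPM in the sham libraries. Both cuff libraries lay below both sham libraries, but the log2 fold change was -0.23 ± 0.14 (SE, adjusted p = 0.338, edgeR). Angpt1 (Entrez Gene 11600, chromosome 15, 42424667 to 42676977) was at 11.0 and 8.32 CPM in the cuff libraries, against 13.7 and 11.9 CPM in the sham libraries. The groups did not overlap here either, though cuff replicate 1 was close to sham replicate 2 (-0.40 ± 0.19, adjusted p = 0.236, edgeR). Vegfb (Entrez Gene 22340, chromosome 19, 6982472 to 6987651) was at 60.2 and 74.2 CPM in the cuff libraries, against 60.7 and 58.8 CPM in the sham libraries. Its groups overlapped, with cuff replicate 2 above the other 3 libraries (0.17 ± 0.14, adjusted p = 0.507, edgeR). At an unadjusted p under 0.05, 0 of the 3 ligand genes passed in the reported fit, and DESeq2 and limma-voom called 0 of them. In some of the alternative fits given further on, Vegfa or Angpt1 passed that threshold, both lower, and neither was called. Leaving out 1 cuff library changed the log2 fold changes of the ligand genes. Without cuff replicate 1, Vegfa was at -0.40, Angpt1 at -0.67 and Vegfb at 0.26, and without cuff replicate 2 they were at -0.13, -0.22 and 0.01.

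**Figure D1:**
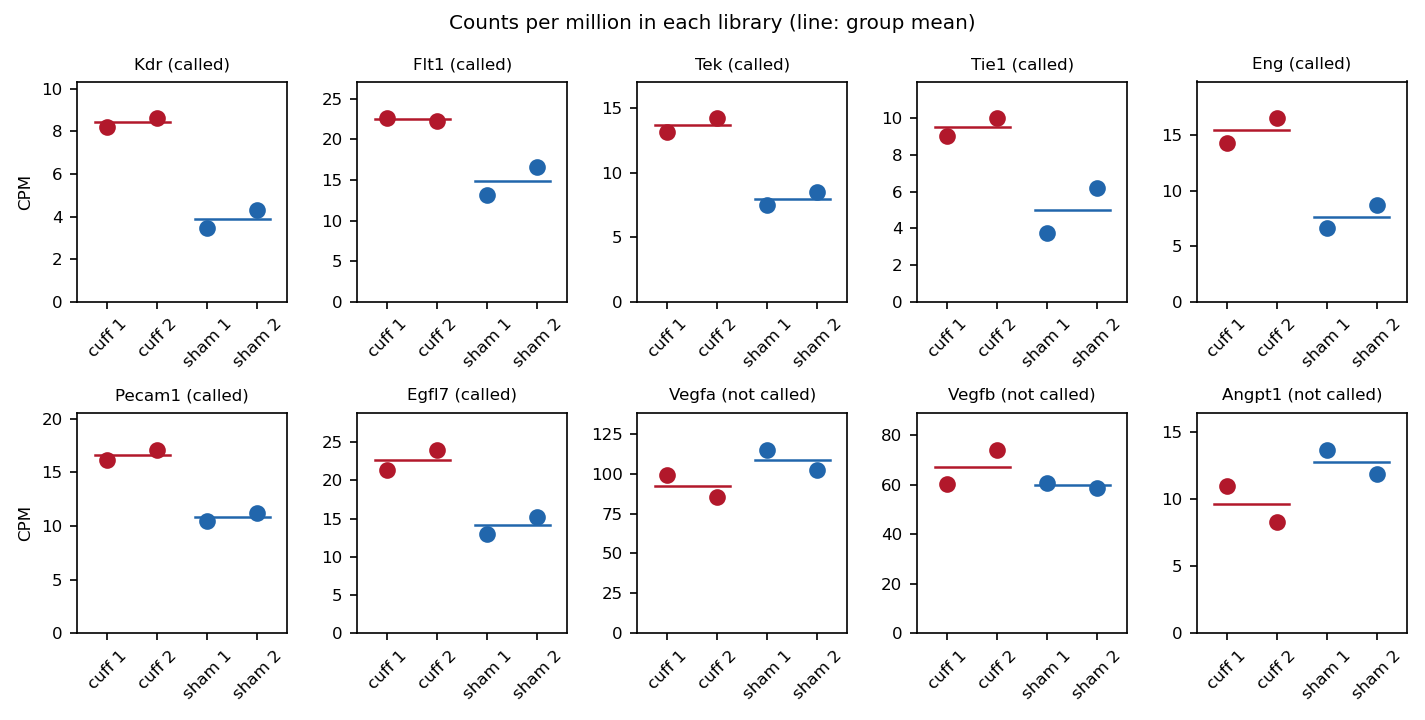
CPM (vertical axes, from 0) of the 10 members in the 4 libraries, cuff on the left in red and sham on the right in blue, with a line at each group mean. In the 7 receptor and endothelial genes both cuff libraries lie above both sham libraries, whereas Vegfa and Angpt1 lie the other way and Vegfb overlaps.

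Over the set, 7 of 10 members were called higher, where 1.15% of all tested genes were, and 0 were called lower, where 2.96% of all tested genes were. Both cuff libraries lay above both sham libraries in 7 members, as in 28.2% of all tested genes, and below them in 2, as in 25.9%. The median log2 fold change of the 10 was 0.65, and that of all tested genes was 0.02. The 7 that rose ranged from 0.59 for Flt1 to 1.11 for Kdr. With 2 libraries a group, a permutation of the labels cannot give a p below 0.333, so these calls rest on the spread that edgeR shares across genes.

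The calls depended on single libraries, while the directions of the 7 did not. Without cuff replicate 2, sham replicate 1 or sham replicate 2, edgeR called 0 of the 10 members, and of all tested genes these fits called 1.24%, 0.0% and 0.0742%, in that order. At an unadjusted p under 0.05, 7 members passed in each of the 3 fits, beside 8.43%, 12.9% and 16.9% of all tested genes. Without cuff replicate 1, 5 members were called, beside 11.1% of all tested genes, and Flt1 and Pecam1 were not. When each library was corrected for transcript length and GC content, edgeR called 0 members and 0.142% of all tested genes, and 8 members and 17.4% of all tested genes had an unadjusted p under 0.05. The 8 were the 7 receptor and endothelial genes and Vegfa, which was lower (-0.27, unadjusted p = 0.0277, edgeR). The median log2 fold change of the 10 was 0.65 in that fit too. The 10 members had a median longest transcript of 3842 bases at 50.7% GC, and 15464 tested genes with a transcript had 3384 bases at 49.9%. These medians hide a range from 39.3% GC for Angpt1 to 62.6% for Vegfb. Eng, Tie1, Egfl7 and Vegfb (57.1% to 62.6% GC) went down with the correction, from 1.01, 0.93, 0.69 and 0.17. Kdr, Flt1 and Tek (47.1% to 50.5% GC) went up, from 1.11, 0.59 and 0.77, and so did Angpt1, from -0.40. Pecam1 (50.2% GC) changed little, from 0.62. In the corrected fit, Kdr (1.23), Flt1 (0.71) and Tek (0.90) had adjusted p of 0.0513, 0.0513 and 0.0542. Eng was at 0.77 (adjusted p = 0.0768), Pecam1 at 0.59 (0.0869), Egfl7 at 0.48 (0.128) and Tie1 at 0.71 (0.167), while Angpt1 moved to -0.12 and Vegfb to -0.10, neither called.

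**Figure D2:**
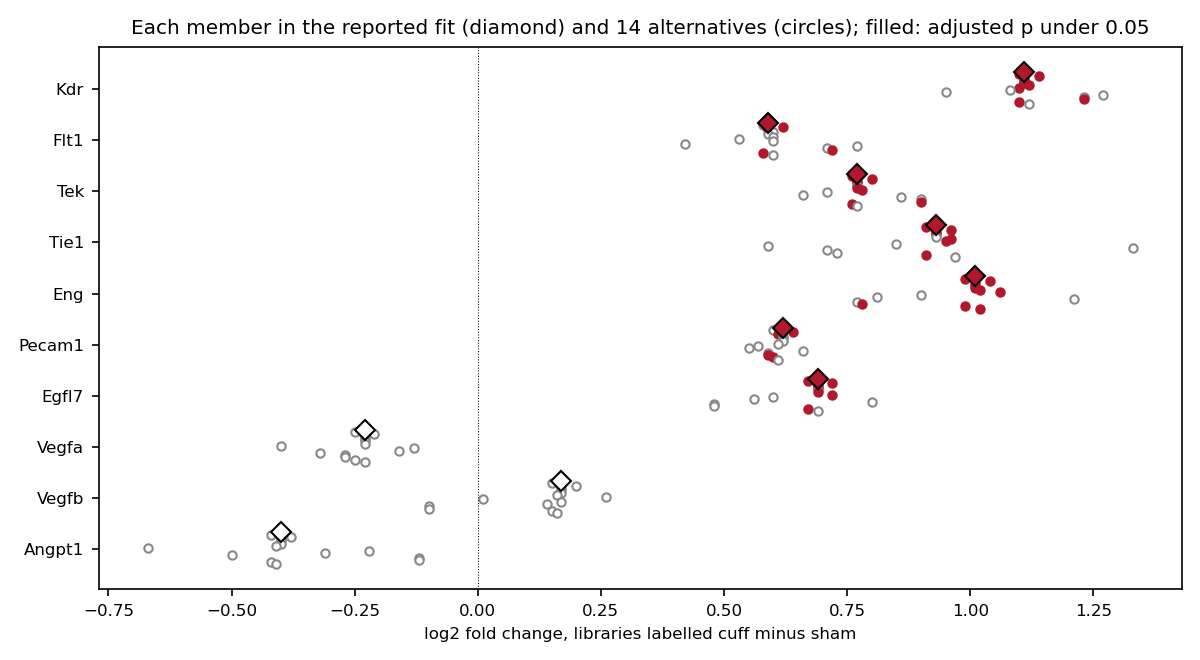
Log2 fold change (horizontal axis, cuff libraries minus sham) of each member in the reported fit (diamonds) and under 14 alternatives (circles), filled where the adjusted p was under 0.05. The 7 receptor and endothelial genes lie above 0 throughout, from 0.42 for Flt1 to 1.33 for Tie1, and Vegfb lies on either side of 0.

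Levels can be set against each other only per length, here as CPM per kilobase of the longest GENCODE M21 transcript. On that scale Vegfb led with 52.5 in the cuff libraries and 46.7 in the sham libraries, followed by Vegfa with 26.8 in the cuff and 31.4 in the sham libraries, and Egfl7 with 12.2 in the cuff and 7.55 in the sham libraries. Kdr was the lowest, at 1.42 in the cuff libraries and 0.657 in the sham libraries. Between these ends, in the cuff libraries, came Pecam1 (4.83), Eng (4.50), Flt1 (3.25), Tek (2.93), Angpt1 (2.27) and Tie1 (2.24). Pecam1 and Eng, and Angpt1 and Tie1, overlapped with each other between the cuff replicates, and the other neighbours in that order did not. Angpt1 had rank 8 in the cuff libraries and rank 5 in the sham libraries, where it averaged 2.99 CPM per kilobase.

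Ratios of Vegfa and Angpt1 to their receptor genes, as CPM per kilobase within a library, were lower in both cuff libraries than in both sham libraries. All ratios in this paragraph recombine the member values given above and are not separate evidence. Vegfa was 20.8 and 17.0 times Kdr in the cuff libraries, against 56.7 and 40.8 times in the sham libraries. Vegfa was 8.79 and 7.66 times Flt1 in the cuff libraries, against 17.5 and 12.3 times in the sham libraries. Angpt1 was 0.919 and 0.640 times Tek in the cuff libraries, against 1.99 and 1.53 times in the sham libraries, so it lay below Tek in the cuff libraries and above it in the sham libraries. Vegfb was 14.3 and 17.9 times Flt1 in the cuff libraries, against 24.9 and 19.1 times in the sham libraries, where cuff replicate 2 came close to sham replicate 2. Flt1 was 2.37 and 2.22 times Kdr in the cuff libraries, against 3.24 and 3.31 times in the sham libraries. The ratio of Tek to Tie1 overlapped between groups (1.32 and 1.29 in the cuff libraries, 1.81 and 1.24 in the sham libraries). Each of the first 5 ratios gave a two-sided exact permutation p of 0.333, the smallest that 2 libraries against 2 allow, and Tek over Tie1 gave 1.0.

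**Figure D3:**
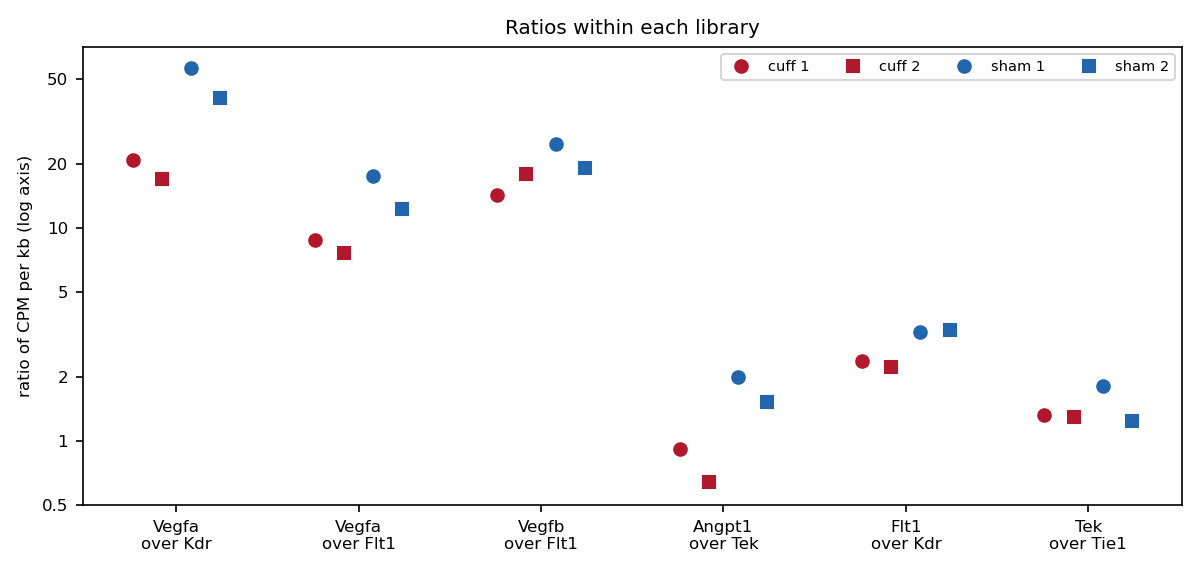
Ratios of CPM per kilobase (vertical axis, log scale) between members within each library, cuff in red and sham in blue, circles for replicate 1 and squares for replicate 2. Vegfa over Kdr sits at 17.0 and 20.8 in the cuff libraries and at 40.8 and 56.7 in the sham libraries, and Tek over Tie1 overlaps between groups.

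Some other endothelial genes were higher as well. Of 15 other endothelial cell genes, 3 were called higher, 12 were not called and none was lower, with a median log2 fold change of 0.47. The tight junction gene Cldn5 was at 23.8 and 25.8 CPM in the cuff libraries, against 7.06 and 9.48 CPM in the sham libraries (1.58, adjusted p = 0.000307, edgeR). Robo4, an endothelial guidance receptor gene, was at 6.02 and 9.73 CPM in the cuff libraries, against 2.75 and 4.02 CPM in the sham libraries (1.22, adjusted p = 0.0289, edgeR). Cd93, an endothelial lectin-like receptor gene, was at 8.43 and 7.76 CPM in the cuff libraries, against 3.50 and 4.66 CPM in the sham libraries (0.99, adjusted p = 0.0311, edgeR). The endothelial cadherin gene Cdh5 (0.91, adjusted p = 0.0575) and the nitric oxide synthase gene Nos3 (0.88, adjusted p = 0.0546) did not pass. The lipid transporter gene Mfsd2a of the blood-brain barrier was at -0.34 (adjusted p = 0.165) and the sphingosine phosphate receptor gene S1pr1 at -0.13 (adjusted p = 0.609), neither called. These 4 genes were named after their values were seen, to show the range of the list.

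Divided by the geometric mean of these 15 genes in the same library, Kdr was at 0.683 and 0.612 in the cuff libraries, against 0.426 and 0.446 in the sham libraries. Eng was at 1.19 and 1.17 in the cuff libraries, against 0.809 and 0.899 in the sham libraries. Flt1 (1.88 and 1.58 in the cuff libraries, 1.61 and 1.72 in the sham libraries) and Pecam1 (1.34 and 1.22 in the cuff libraries, 1.28 and 1.16 in the sham libraries) overlapped between groups on this scale. Kdr and Eng were higher in both cuff libraries relative to this mean as well (two-sided exact permutation p = 0.333 for each, the smallest possible), and Flt1 and Pecam1 did not separate. This does not hold against each gene of the list. Of the 15, Cldn5 (1.58) and Robo4 (1.22) had larger log2 fold changes than Kdr (1.11), and 3 were negative. Tie1 was at 0.750 and 0.709 in the cuff libraries, against 0.461 and 0.644 in the sham libraries, and Tek at 1.09 and 1.01 in the cuff libraries, against 0.915 and 0.880 in the sham libraries. Egfl7 was at 1.78 and 1.70 in the cuff libraries, against 1.59 and 1.57 in the sham libraries. These 3 genes did not overlap between groups either, with smaller gaps than Kdr. In CPM, 54.1% of all tested genes did not overlap between groups, in either direction. That share was not computed on this scale. The ligand genes were lower on this scale in both cuff libraries. Vegfa was at 8.27 and 6.06 in the cuff libraries, against 14.1 and 10.6 in the sham libraries. Angpt1 was at 0.913 and 0.591 in the cuff libraries, against 1.67 and 1.23 in the sham libraries. Vegfb was at 5.01 and 5.27 in the cuff libraries, against 7.43 and 6.1, though its own log2 fold change was 0.17. The mean of the 15 genes was itself higher in the cuff libraries, so a gene level in CPM comes out lower here. As centred log2 CPM, that mean was at 0.16 and 0.39 in the cuff libraries, against -0.4 and -0.16 in the sham libraries.

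Around endoglin, the genes of its signalling complex were not uniform. Of 8 tested genes of the BMP9 pathway, 2 were called higher, 6 were not called and none was lower. Acvrl1, which encodes the BMP9 receptor kinase ALK1, was at 8.96 and 11.8 CPM in the cuff libraries, against 4.65 and 5.44 CPM in the sham libraries (1.04 ± 0.22, adjusted p = 0.0176, edgeR). The ratio of Eng to Acvrl1 per kilobase was 1.70 and 1.49 in the cuff libraries and 1.51 and 1.70 in the sham libraries. Id3, a transcriptional target of BMP signalling, was at 30.0 and 31.3 CPM in the cuff libraries, against 21.0 and 20.1 CPM in the sham libraries (0.58 ± 0.14, adjusted p = 0.0319, edgeR). Bmpr2, the type II receptor gene, went the other way at 11.8 and 6.30 CPM in the cuff libraries, against 23.0 and 37.1 CPM in the sham libraries. It did not pass edgeR's test (-1.73 ± 0.46, adjusted p = 0.170), but DESeq2 and limma-voom called it lower. Unlike Id3, the related gene Id1 was nearly level (0.04, adjusted p = 0.928, edgeR). Smad1 (-0.18, adjusted p = 0.503, edgeR) and Smad5 (-0.25, adjusted p = 0.279, edgeR) were not called either. The ligand genes had almost no counts: Gdf2, which encodes BMP9, had 2 and 0 in the cuff libraries and 2 in each of the sham libraries, and Bmp10 had 0 in all 4.

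Other genes of the VEGF and angiopoietin pathways were not called. Of 6 further VEGF ligand, receptor and co-receptor genes, 5 had a positive log2 fold change. The lymphatic receptor gene Flt4 was at 4.33 and 5.01 CPM in the cuff libraries, against 1.86 and 3.78 CPM in the sham libraries (0.73, adjusted p = 0.216, edgeR). The co-receptor gene Nrp2 was lower without passing (-0.38, adjusted p = 0.143), and Vegfc, the ligand of that lymphatic receptor, was at 0.59 (adjusted p = 0.386). Of the 3 further angiopoietin genes, Ptprb, a phosphatase that acts on Tie2, was at 0.60 (adjusted p = 0.532), Angpt2, the context-dependent Tie2 ligand gene, at 0.30 (adjusted p = 0.784) and Angpt4 at 0.21 (adjusted p = 0.912). At an unadjusted p under 0.05, 2 of the 6 VEGF genes (Flt4 higher, Nrp2 lower) and 0 of the 3 angiopoietin genes passed, where 21.5% of all tested genes did, and DESeq2 and limma-voom called none of either list.

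Genes of vessel sprouting and endothelial identity mostly had positive log2 fold changes without a call by edgeR, DESeq2 or limma-voom. Among 9 Notch and ephrin genes 8 were positive, with a median of 0.50, and 5 had an unadjusted p under 0.05, all higher, where 9.74% of all tested genes did. Dll4, the Notch ligand gene of sprouting tip cells, was at 2.94 and 2.23 CPM in the cuff libraries, against 1.26 and 0.907 CPM in the sham libraries (1.26, adjusted p = 0.0754, edgeR). Ephb4 (0.94, adjusted p = 0.0704), a venous receptor gene, and Jag1 (0.68, adjusted p = 0.0826), another Notch ligand gene, were close to the threshold. Among 6 tested tip cell genes 5 were positive and 2 had an unadjusted p under 0.05, against the same 9.74%. They were the pericyte-recruiting ligand gene Pdgfb (0.69, adjusted p = 0.0689) and the apelin receptor gene Aplnr (0.41, adjusted p = 0.196), whereas the ligand gene Apln was at -0.24 (adjusted p = 0.333). All 8 endothelial transcription factor genes were positive, with a median of 0.67 and 4 at an unadjusted p under 0.05, against the same 9.74%, among them Sox18 (0.94, adjusted p = 0.0982), Erg (1.03, adjusted p = 0.124) and Ets1 (0.49, adjusted p = 0.144).

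Of 12 hypoxia-regulated genes and VEGF regulators, 3 were positive and 9 negative, with a median log2 fold change of -0.18, and none was called by edgeR, DESeq2 or limma-voom. At an unadjusted p under 0.05, 2 of the 12 were lower, near the 11.7% of all tested genes, and none was higher. The hypoxia factor gene Hif1a was at 112 and 87.2 CPM in the cuff libraries, against 121 and 142 CPM in the sham libraries (-0.40, adjusted p = 0.116, edgeR). The glucose transporter gene Slc2a1, which is carried by endothelial cells of the blood-brain barrier as well as being hypoxia-induced, was at -0.27 (adjusted p = 0.228), and Arnt, the partner of the hypoxia factors, was at 0.30 (adjusted p = 0.233).

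**Figure D4:**
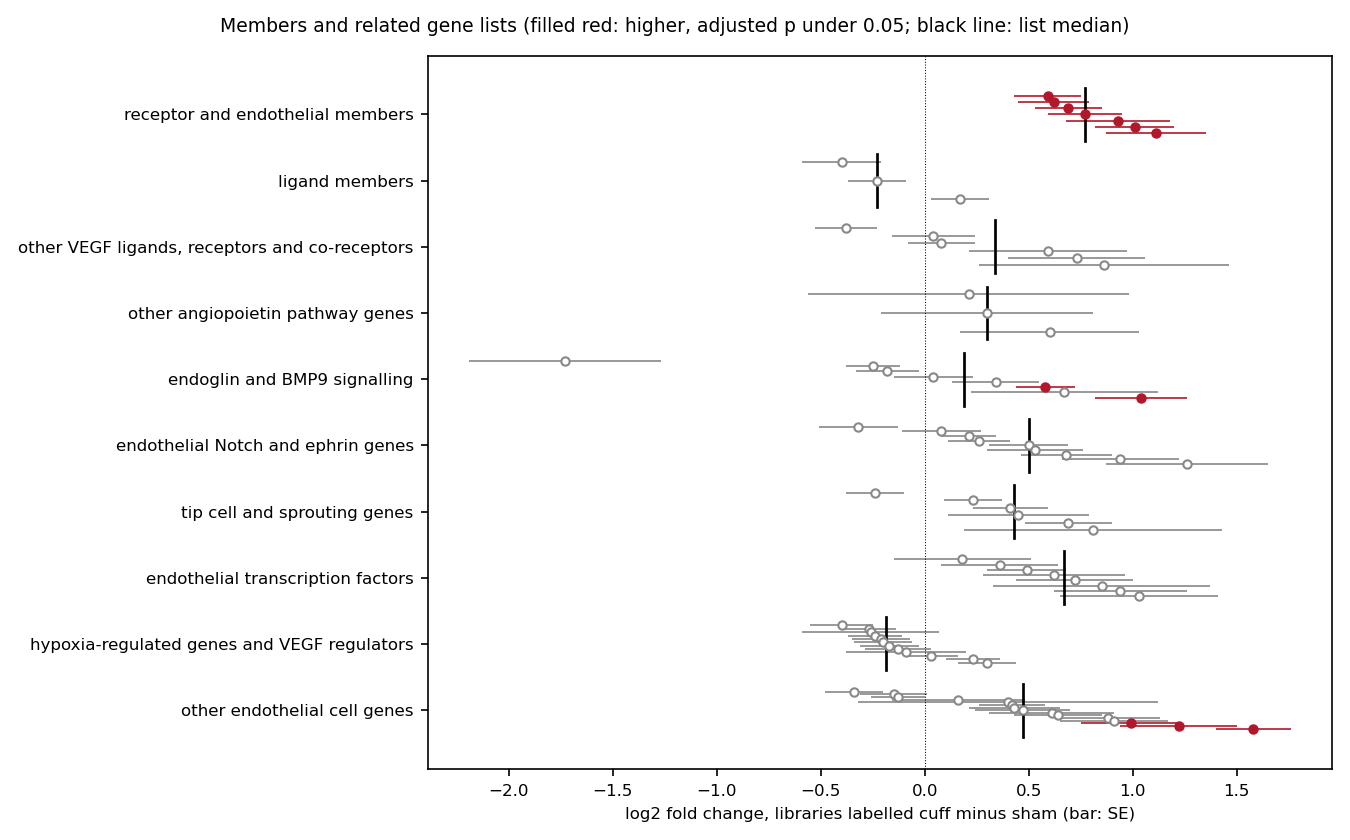
Log2 fold change (horizontal axis, cuff libraries minus sham, bars for the SE) of each member and of each tested gene of 8 related lists, with a black line at the median of each list and filled red points where a gene was called higher. The 7 receptor and endothelial members lie between 0.59 and 1.11, and the hypoxia list has a median of -0.18.

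Markers of other vessel and tissue cells differed between libraries too. The sum of 8 pericyte and smooth muscle markers was 140 and 191 CPM in the cuff libraries, against 80.5 and 113 CPM in the sham libraries. Of the 8, 2 were called higher, Pdgfrb and Vtn, and the pericyte marker Rgs5 was at -0.18 (adjusted p = 0.631, edgeR). Much of the sum was Vtn, at 67.5 and 97.0 CPM in the cuff libraries, against 39.3 and 50.2 CPM in the sham libraries. The sum of 8 leptomeningeal and fibroblast markers was 1090 and 1940 CPM in the cuff libraries, against 929 and 916 CPM in the sham libraries, with 1 of 8 called, Slc6a20a. Most of it was Ptgds, at 790 and 1290 CPM in the cuff libraries, against 757 and 568 CPM in the sham libraries. The sum of 8 skeletal muscle markers was 266 and 711 CPM in the cuff libraries, against 224 and 154 CPM in the sham libraries, with 0 called by edgeR, DESeq2 or limma-voom and 0 at an unadjusted p under 0.05. Pvalb made up 106 and 144 CPM of it in the cuff libraries, and 118 and 81.2 CPM in the sham libraries. For 8 leukocyte, platelet and bone marrow markers (7 tested) the sum was 167 and 391 CPM in the cuff libraries, against 48.2 and 104 CPM in the sham libraries, with 2 called, Mpo and Ppbp. The 4 red blood cell markers with an identifier summed to 58.3 and 246 CPM in the cuff libraries, against 74.5 and 130 CPM in the sham libraries, and the 8 Schwann cell and sensory ganglion markers to 516 and 1780 CPM in the cuff libraries, against 255 and 538 CPM in the sham libraries. Neither list had a call by edgeR, DESeq2 or limma-voom or a gene at an unadjusted p under 0.05. Of these markers with an identifier only Scn10a, a sensory neuron channel gene, was at 0 in any library, with 0 and 213 counts in the cuff libraries and 0 in both sham libraries.

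The meninges, muscle, blood and nerve sums were far higher in cuff replicate 2 than in cuff replicate 1. The summed CPM of the 7 receptor and endothelial members was 105 and 113 in the cuff libraries, against 57.9 and 70.6 in the sham libraries. The pericyte and the leukocyte sums ordered the 4 libraries as the members did (cuff replicate 2, cuff replicate 1, sham replicate 2, sham replicate 1), and the meninges, muscle, red blood cell and nerve sums did not. Averaged as log2 CPM centred on each gene, the 7 members were at 0.36 and 0.47 in the cuff libraries, against -0.58 and -0.25 in the sham libraries. Among the marker lists, that of pericytes ran closest to them, at 0.26 and 0.50 in the cuff libraries, against -0.63 and -0.13 in the sham libraries. On this scale, unlike in its sum, the leptomeningeal and fibroblast list also had the members' order. It was at -0.01 and 0.97 in the cuff libraries, against -0.89 and -0.08 in the sham libraries. Sums of neuron markers (6540 and 5680 CPM in the cuff libraries, 7070 and 6460 in the sham libraries) and of astrocyte markers (7160 and 6310 CPM in the cuff libraries, 8420 and 7670 in the sham libraries) were lowest in cuff replicate 2, and Aqp4, the astrocyte water channel gene, fell (-0.63, adjusted p = 0.0248, edgeR). Oligodendrocyte markers summed to 32400 and 28200 CPM in the cuff libraries, against 31200 and 25400 CPM in the sham libraries, and microglia markers to 306 and 269 CPM in the cuff libraries, against 345 and 324 CPM in the sham libraries. No marker of these 4 spinal cord cell types was at 0 in a library, and Aqp4 was the only one that edgeR called. DESeq2 called Aqp4, Gja1, Slc1a2 and the neuronal glutamate transporter gene Slc17a6 lower. How much other tissue adds to the members' values was not tested.

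**Figure D5:**
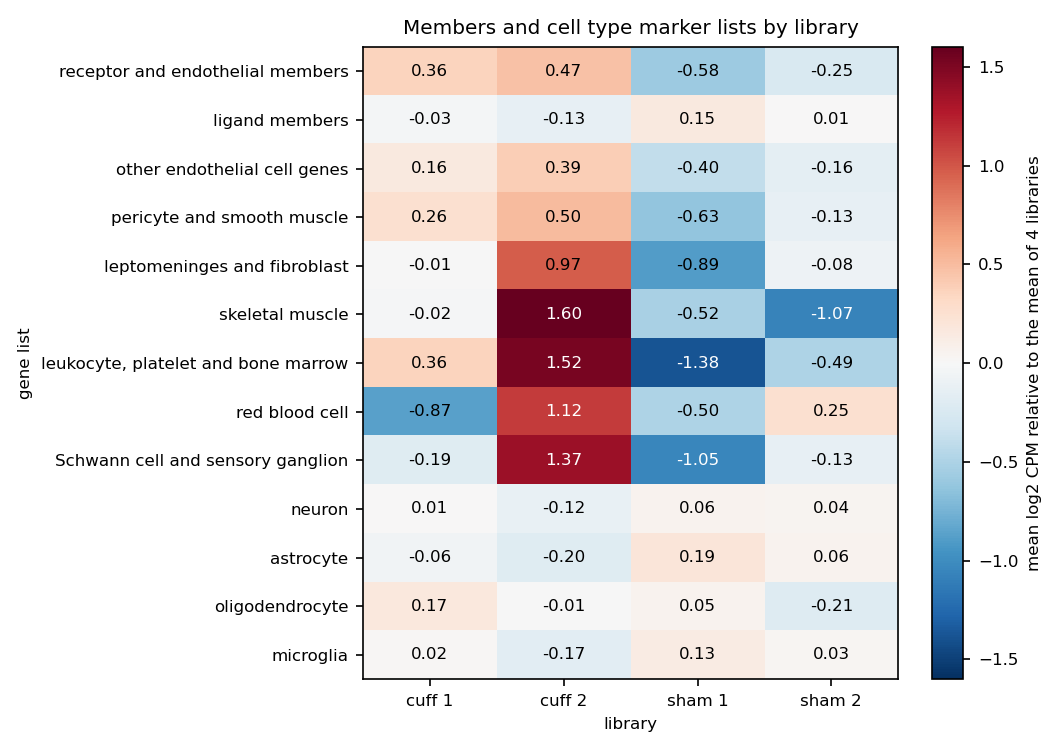
Mean log2 CPM of each gene list in each library, centred for each gene on its 4 libraries (colour scale and printed values), with the cuff libraries on the left. The receptor and endothelial members are at 0.36 and 0.47 in the cuff libraries and at -0.58 and -0.25 in the sham libraries, and the skeletal muscle list reaches 1.60 in cuff replicate 2 alone.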

How the data were processed

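The deposited values are unnormalised counts for Entrez gene identifiers, which the authors made with Trimmomatic 0.30, HISAT2 2.0.1 and featureCounts on build mm10, per the submitters' processing notes; no source used here gives the annotation or strand setting. One file joined identifier and count by a literal backslash and letter and was split there. Of 27179 identifiers, 25275 took symbols from RefSeq (GRCm38.p6, the assembly of mm10, also used for coordinates), 18 from GENCODE M21, and 1886 had none.

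Tests used R 4.3.3, edgeR 4.0.16 (filterByExpr, TMM scaling, robust quasi-likelihood F test, group as the only term, two-sided), limma 3.58.1 and DESeq2 1.42.0, with Benjamini-Hochberg adjustment over all genes tested in a fit (16918 as reported, 14950 given an adjusted p by DESeq2) and calls at 0.05. CPM uses TMM-scaled totals. Standard errors were obtained as |log2 fold change| over the root of F. No pair of libraries agreed within counting noise (chi-square per degree of freedom 24.2 to 72.2). The value was 24.2 between the cuff libraries and 36.4 between the sham libraries, against 30 to 72.2 between groups. The length and GC correction is a local regression per library over 15464 genes, used as offsets. Named genes were all members, the called genes of each related list and up to 3 with the smallest p. Id1, Smad1, Smad5, Gdf2 and Bmp10 of the BMP9 list and the markers Rgs5, Ptgds and Pvalb were named outside that rule, with values known. So were the endothelial genes given to show the range of their list. Members and lists were chosen with earlier results of these data known.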

Additional observations from a re-analysis of the deposited data

How the results depend on the processing

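Across 14 alternatives the 7 receptor and endothelial members had a positive log2 fold change in every fit, and 49 of 140 member values lost a call, 0 gained one and 2 turned sign. Both of those were Vegfb, at -0.10 with the length and GC correction alone and at -0.10 with the replicate block added. The number of members called was 7 as reported, and 2 with a dispersion prior that is not robust (237 of all genes called), 1 with limma-voom (Eng; 147 of all genes) and 0 with the length and GC correction (22 of all genes), where the prior degrees of freedom were 6.57 against 15.8. All genes called came to 696 as reported, 1292 without a filter, 1086 with DESeq2 and 446 with the replicate block and the correction together, where 5 members were called (Kdr, Flt1, Tek, Eng and Pecam1). Leaving out each library gave 0 to 5 members called, 0 to 1928 of all genes, and a median log2 fold change of the members of 0.56 to 0.78; 0.78 was without sham replicate 2. In those fits the lone library is assumed to vary like the others. Same-numbered libraries deviated together only weakly (r = 0.111 over genes), and with 2 pairs the numbers do not pair the libraries. With the replicate block, 5 members and 554 of all genes were called, and Flt1 and Pecam1 were not. The receptor and endothelial members had 133 to 819 counts per library, and whether depth or the number of libraries limits them more was not tested.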
